A study of Mus musculus with 6 samples.

Results

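Tetraspanins are small membrane proteins that cross the membrane several times and gather integrins, proteases and receptors into patches of the cell surface. The 10 genes followed here were the red cell tetraspanin Tspan33, the megakaryocyte and progenitor tetraspanin Cd9, and Cd37, Cd53, Cd63, Cd81, Cd82, Cd151, Tspan9 and Tspan32. They were chosen by name, as every probe whose gene name in the array files is one of the 10, which gave 16 probes for 10 of the 34964 gene names on the array. All 16 probes passed the filter on dim spots, so every one of the 10 genes was measured. The Tspan9 probe passed only through the group of arrays where it was brighter.

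In blood cells the family divides by cell type. Tspan33, also called Penumbra, is made by maturing red cell precursors and escorts the protease ADAM10 to the cell surface, whereas Cd9 is abundant on megakaryocytes and platelets, where it sits beside the platelet integrin. Cd63 lies in late endosomes and granules, Cd37 and Cd53 are largely confined to white blood cells, and Cd81 is found on most cell types.

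RNA came from erythroid progenitors of mouse fetal liver at day E14.5 of gestation, isolated with a selection kit. In the 3 shExosc8 samples a retrovirus carried a short hairpin RNA against Exosc8, a core subunit of the RNA exosome, the complex that trims and degrades RNA from its 3′ end. In the 3 shControl samples it carried a hairpin against luciferase. All 6 samples had the virus with polybrene, the spin infection, and 3 days of culture with erythropoietin, dexamethasone and medium conditioned by cells making kit ligand, and the question, by the title of the series, is which genes Exosc8 regulates. The labels name 1 hairpin per group, and they do not say whether replicates came from separate litters or cultures. The p-values therefore rest on a spread between samples that may be technical.

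Each sample was hybridised to 1 single-colour array of 62976 features, of which 59305 were not controls. On shControl replicate 2, 67.3% of those spots stood clearly above background, and on the other 5 arrays 43.1% to 49.3%, with none saturated. All arrays lay on 1 slide, with 3 shExosc8 arrays in row 2 (columns 1 to 3) and 3 shControl arrays in row 1 (columns 2 to 4), so that the effects of row and hairpin cannot be told apart. Exosc8 itself had a normalized signal of 7158, 7080.1 and 10169 in shExosc8 samples, against 17440.0, 17323 and 18394 in shControl samples. It fell by 1.14 ± 0.16 (SE) on the log2 scale (adjusted p = 0.00554), and shExosc8 replicate 3 retained the most, 57.4% of the shControl mean. The erythroid label was set beside 25 red cell markers, and all 25 were above background on all 6 arrays. So were all 14 measured neutrophil and monocyte markers and 18 of 20 megakaryocyte markers. Detection alone therefore does not tell the cell type.

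The bases upstream of Cd9, Cd63 and Tspan33 are shown first, because these genes hold the largest change, the smallest p and the red cell place among the 10. Each run is the 250 bases before the gene's start in RefSeq (mouse build GRCm38.p6), read 5′ to 3′ on the gene's strand. Capitals mark matches to CCNCNCCC, the letters bound by KLF factors, on either strand, with overlapping matches joined.
Cd9: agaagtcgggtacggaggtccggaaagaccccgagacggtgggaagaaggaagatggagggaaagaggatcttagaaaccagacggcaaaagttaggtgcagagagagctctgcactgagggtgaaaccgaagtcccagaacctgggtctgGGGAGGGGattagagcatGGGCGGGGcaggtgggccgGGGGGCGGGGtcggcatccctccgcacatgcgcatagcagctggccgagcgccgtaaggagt
Cd63: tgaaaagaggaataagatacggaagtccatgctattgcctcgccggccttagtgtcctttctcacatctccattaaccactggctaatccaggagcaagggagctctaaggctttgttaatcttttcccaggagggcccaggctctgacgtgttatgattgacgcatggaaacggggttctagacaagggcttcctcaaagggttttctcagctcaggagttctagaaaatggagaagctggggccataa
Tspan33: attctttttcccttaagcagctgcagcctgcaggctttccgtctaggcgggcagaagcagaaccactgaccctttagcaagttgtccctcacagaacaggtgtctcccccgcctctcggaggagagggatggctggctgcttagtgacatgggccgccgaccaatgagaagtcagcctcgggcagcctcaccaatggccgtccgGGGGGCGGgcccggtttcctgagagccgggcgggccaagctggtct
The Cd9 window is chr6:125494761-125495010 on the minus strand, the Cd63 window is chr10:128909095-128909344 on the plus strand and the Tspan33 window is chr6:29693964-29694213 on the plus strand. The Cd9 run held 4 matches, 60, 62, 81 and 99 bases before the start, and the Tspan33 run held 1, 46 bases before it. The Cd63 run held none of these letters. CCNCNCCC occurs in 45.9% of 32851 mouse promoter windows of this length. The windows of Cd9 and Tspan33 were alike in base composition, with 61.6% and 62.4% G or C and 16 and 13 CpG pairs, while that of Cd63 had 48.8% and 6. AGATAA, 1 form of the letters bound by GATA factors, was searched on both strands in all 17 windows of the 10 genes. It matched only in that of Tspan32, against 9.99% of all windows. Other forms of the GATA letters were not searched, so the other windows may hold them. No array measures binding at these places.

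Of the 10 genes, 4 rose in shExosc8 samples (Cd9, Cd63, Tspan9 and Cd53) and none fell by the probe that stood for each gene. Tspan9 entered this and the following counts only through its shExosc8 arrays, where it was higher. Across all 18228 names tested, 29.8% passed the same test, 16% of them all upward and 13.8% downward. The median log2 fold change of the 10 was 0.52, against -0.06 over all names. Among the 10, Cd9, Cd63 and Tspan9 were called with fitted ratios of 4-fold or more, against 3.66% of all names. With other background corrections Tspan9 and Cd63 both fell under 4-fold. Cd63 lay near that line, at a log2 of 1.998 and 1.973 with normexp, 1.989 with median centring and 1.540 with no scaling. In 5 genes every shExosc8 array lay above every shControl array, as in 23.2% of all names. In Cd37 every one lay below, and 51.6% of all names had groups that did not overlap in either direction. With each of the 16 probes tested on its own, 5 rose and 1 fell, against 27.8% called of all 24836 probes. The test was limma on log2 signal scaled to each array's 75th percentile, with Benjamini-Hochberg adjustment over all names, and normalized signal is that value returned to intensity units. It compares arrays for 1 probe and not 1 probe with another.

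**Figure D1:**
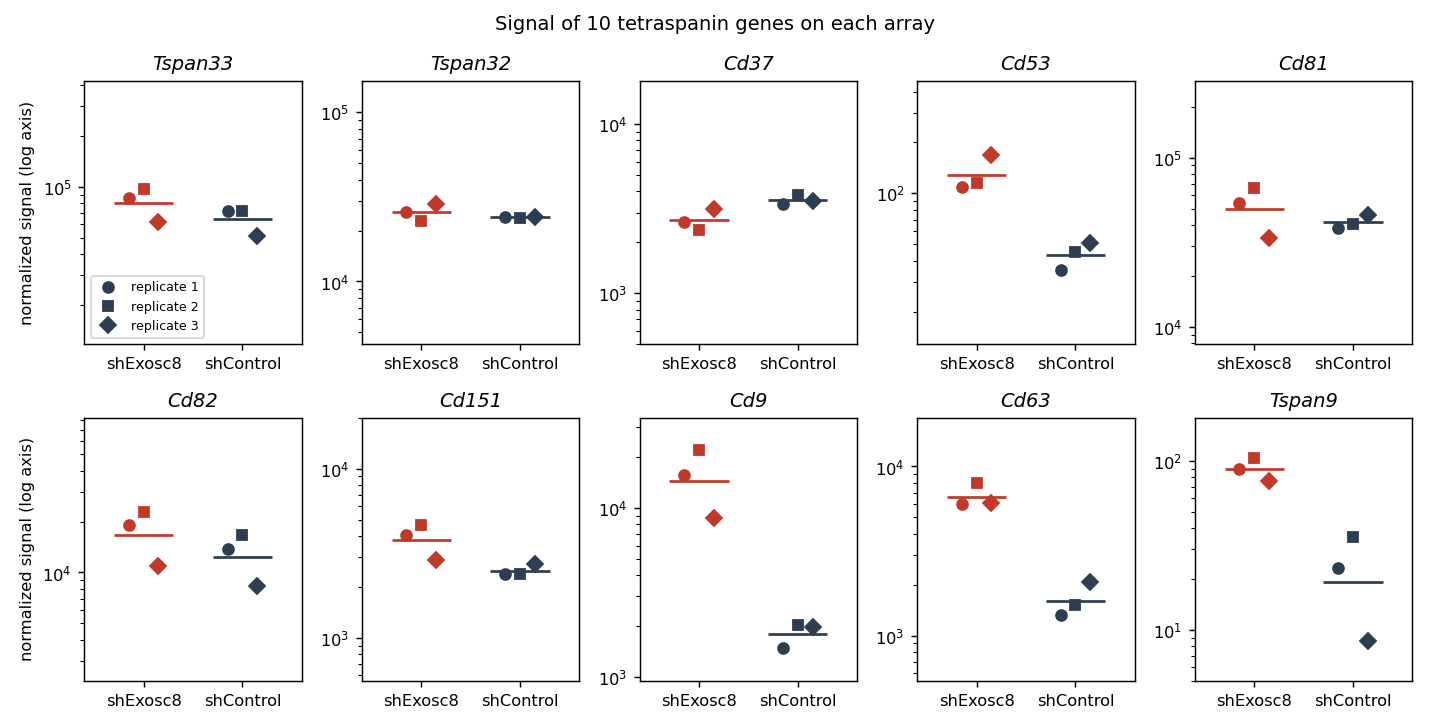
Normalized signal (intensity units, log axis with the same span in each panel) of the 10 tetraspanin genes, with shExosc8 arrays in red at the left and shControl arrays in dark blue at the right. Each point is 1 array, its shape gives the replicate number, and lines are geometric means. In Cd9, Cd63, Cd53 and Tspan9 all 3 shExosc8 points stand above all 3 shControl points by a wide gap, while those of Tspan33, Cd82, Cd81 and Tspan32 overlap.

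Tspan33, the red cell member, had a normalized signal of 86175, 96759 and 61808 in shExosc8 samples, against 72089, 71776 and 51188 in shControl samples. The groups overlapped: shExosc8 replicate 3 lay below both shControl replicates 1 and 2. The log2 fold change was 0.32 ± 0.22 (SE), a 1.25-fold ratio with a 95% interval of 0.864 to 1.8, and it did not pass the test (adjusted p = 0.294). With no scaling between arrays the estimate was -0.18. Its probe matches chr6:29668498-29668557 (mm9, plus strand).

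Cd9, the megakaryocyte and progenitor member, had a normalized signal of 15584, 21955 and 8745 in shExosc8 samples, against 1480.4, 2026 and 1969 in shControl samples. Every shExosc8 value was several times the highest shControl value, and shExosc8 replicate 3 had the lowest of its group. Cd9 rose by a log2 of 3.00 ± 0.34 (SE), which is 7.97-fold with a 95% interval of 4.51 to 14.1 (adjusted p = 0.0027). It ranked 228th from the top of 18228 names. In RNA from a mixed culture, more or fewer cells of a type and more or less RNA per cell cannot be told apart, which holds for this rise and all changes that follow. Leaving out any 1 array gave a log2 of 2.69 to 3.35 and kept the call, and with the slide column as a block the value was 3.00 with an adjusted p of 0.0551. Its probe matches chr6:125410387-125410446 (mm9, minus strand).

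The Cd9 and Tspan33 signals were then set against each other on each array. Relative to the mean of the shControl arrays, the log2 ratio of the Cd9 to the Tspan33 signal was 2.68, 3.01 and 2.33 on the shExosc8 arrays, against -0.45, 0.0040 and 0.45 on the shControl arrays. The groups did not overlap and the difference was 2.67 ± 0.33 (SE), a 6.39-fold shift of the ratio. An exact two-sided permutation test over the 6 arrays gave p = 0.1, the smallest that 3 against 3 allows, so this test cannot reach 0.05 with 6 arrays. Adjusted over the 9 pairs of a member with Tspan33, that p was 0.225. The scaling of an array cancels in this ratio, and the difference lay between 2.45 and 2.90 under every alternative run. The ratios of Tspan9, Cd63 and Cd53 to Tspan33 also had groups that did not overlap, with differences of 1.89, 1.72 and 1.25 and the same exact p of 0.1. Those of Cd37, Cd81, Cd82, Cd151 and Tspan32 overlapped, with exact p from 0.2 to 0.9. The share of all names whose ratio to Tspan33 did not overlap was not computed, while the groups of single names did not in 51.6%. For Tspan9, only 1 of 3 shControl arrays was above background, and its probe passed the filter only through the shExosc8 arrays.

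The genes whose signal ran most like each of these members were sought among 175 measured genes of the lists used here, by Pearson correlation of the scaled log2 signal over the 6 arrays. For Tspan33 they were Cd82 (r = 0.982), the blood group gene Rhd (0.972) and the erythroid gene Trim10 (0.918). For Cd9 they were the mast cell carboxypeptidase Cpa3 (0.996), the lysosomal membrane gene Lamp2 (0.995) and the megakaryocyte gene Treml1 (0.993). The 6 points fall into 2 groups and share the slide, so these values are a description. Neither Cd82 (log2 0.44), Rhd (0.41) nor Trim10 (1.09) passed the test between groups.

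Cd63, the late endosome and granule tetraspanin, had a normalized signal of 5989, 7938 and 6078 in shExosc8 samples, against 1320.2, 1519.6 and 2079 in shControl samples. The lowest shExosc8 value was well above the highest shControl value. It rose 4.11-fold (95% interval 2.91 to 5.8), a log2 of 2.04 ± 0.21 (adjusted p = 0.0019), and kept the call whichever array was left out. In the authors' deposited table Cd9 and Cd63 were the members below 0.05, with log2 fold changes of 3.00 and 2.01 and adjusted p of 0.00586 and 0.0088. The Cd63 probe matches chr10:128349813-128349872 (mm9, plus strand).

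Tspan9, a platelet tetraspanin known to gather with the collagen receptor GPVI, gave a dim signal. It was 89.5, 104 and 76.4 in shExosc8 samples, against 23.3, 35.6 and 8.63 in shControl samples, where only 1 of 3 arrays was well above background. The probe thus passed the filter on dim spots only through the shExosc8 arrays. The groups did not overlap, and shControl replicate 3 lay far under the other two. Tspan9 rose by a fitted log2 of 2.21 ± 0.50 (SE), 4.64-fold with a 95% interval of 2.00 to 10.7 (adjusted p = 0.0222). The size varied with the arrays and the background step: it was 1.63 without shControl replicate 3, and 1.08 or 0.81 with normexp background correction. The call was lost without shExosc8 replicate 1, without shExosc8 replicate 2 and without shControl replicate 1, with adjusted p up to 0.0746. It was also lost with no filter on dim probes (adjusted p = 0.0829) and with the slide column as a block (0.0871), and the authors' deposited table gives a log2 of 1.40 and an adjusted p of 0.0587. Its probe matches chr6:127912820-127912879 (mm9, minus strand).

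Cd53, a leukocyte tetraspanin, was dim as well, at 109, 115 and 168 in shExosc8 samples and 35.1, 44.9 and 50.7 in shControl samples. The lowest signals called above background were 27.1 to 49.5 on the shExosc8 arrays and 13.5 to 36.4 on the shControl arrays, so the shControl values stood close to that floor. All 3 shExosc8 arrays were above all 3 shControl arrays. Cd53 rose by a log2 of 1.57 ± 0.22 (SE), 2.97-fold with a 95% interval of 2.06 to 4.29 (adjusted p = 0.00509). The size depended on the background step: it was 0.86 after normexp with percentile scaling, and 0.61, no longer past the test (adjusted p = 0.0579), after normexp with quantile normalization. The authors' deposited table gives it a log2 of 0.80 and an adjusted p of 0.193. Its probe matches in pieces between 106565046 and 106566140 of chromosome 3 (mm9, minus strand).

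Cd37, the other leukocyte tetraspanin, stood the opposite way to Cd53. By its brighter probe the normalized signal was 2653, 2363 and 3129 in shExosc8 samples, against 3388, 3796 and 3514 in shControl samples. Every shExosc8 value was under every shControl value, and the log2 fold change of -0.40 ± 0.13 (SE) did not pass the test (adjusted p = 0.0655). Its second probe, about 1 kilobase away, gave 597, 567 and 594 in shExosc8 samples and 760.1, 1018 and 802 in shControl samples. By that probe Cd37 fell by 0.54 ± 0.14 on the log2 scale (adjusted p = 0.0332 over all probes, of which 13.1% fell), so the call depended on the probe. It also depended on scaling and background correction: the brighter probe passed with the array median as the scale (adjusted p = 0.0458) and with both normexp settings (0.0423 and 0.0375). The probes match chr7:52489002-52489061 and chr7:52490054-52490113 (mm9, minus strand).

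Cd151, the partner of the laminin-binding integrins, showed the same split between probes in the upward direction. Its brighter probe had 4052, 4673 and 2876 in shExosc8 samples and 2382, 2389.5 and 2742 in shControl samples. The groups did not overlap, with shExosc8 replicate 3 just above shControl replicate 3, and the log2 fold change of 0.60 ± 0.19 (SE) did not pass the test (adjusted p = 0.0603). The other probe had 273, 273 and 228 in shExosc8 samples and 144, 176 and 106 in shControl samples. By it Cd151 rose by 0.89 ± 0.20 (adjusted p = 0.0244 over all probes, of which 14.7% rose). The brighter probe passed, at 0.79 with an adjusted p of 0.00735, when shExosc8 replicate 3 was left out. The probes match chr7:148657237-148657297 and chr7:148656555-148656614 (mm9, plus strand).

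Cd81, a widely made tetraspanin of the cell surface, had a normalized signal of 54322, 66496 and 33715 in shExosc8 samples, against 38291, 40782 and 46133 in shControl samples. The shExosc8 values were spread on both sides of the shControl values, with replicate 3 the lowest of all 6. The ratio was 1.19-fold with a 95% interval of 0.777 to 1.83 (adjusted p = 0.472), and without shExosc8 replicate 3 it reached a log2 of 0.52 (adjusted p = 0.0335). Its probe matches chr7:150253737-150253796 (mm9, plus strand).

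Cd82, a tetraspanin known for restraining cell migration, had 19022, 22713 and 10870.0 in shExosc8 samples, against 13844, 16594 and 8271 in shControl samples. The groups overlapped, and in both the replicate numbered 3 was the lowest and the replicate numbered 2 the highest. The ratio was 1.35-fold with a 95% interval of 0.739 to 2.47 (adjusted p = 0.38). Its other probes gave log2 fold changes of 0.39 and 0.31, neither past the test. The brightest probe matches chr2:93259268-93259327 and the others chr2:93274019-93274078 and chr2:93260018-93260077 (mm9, minus strand).

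Tspan32, a tetraspanin of blood cells also called Tssc6, was the steadiest of the 10 on the shControl arrays. It had 25861, 22812 and 28602 in shExosc8 samples, against 23985, 23647 and 24163 in shControl samples. The groups overlapped, and the ratio was 1.07-fold with a 95% interval of 0.882 to 1.3 (adjusted p = 0.532). Its other probes pointed downward, at -0.22 ± 0.17 (adjusted p = 0.339) and -0.30 ± 0.10 (adjusted p = 0.0629), both on the log2 scale. The last of these, at chr7:150191020-150191079 and upstream of the brightest probe at chr7:150205329-150205388 (mm9, plus strand), had 905, 884 and 925 in shExosc8 samples and 1078, 1095 and 1169.9 in shControl samples, with no overlap. The direction for Tspan32 thus differed between its probes, and its brightest probe turned to -0.0457 with the 75th percentile of all probes as the scale.

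Of the 10 genes, 6 were lowest on shExosc8 replicate 3 within that group and 7 were highest on shExosc8 replicate 2. The 3 highest on shExosc8 replicate 3 were Cd53, Cd37 and Tspan32. Within the shControl group, 6 of the 10 were lowest on replicate 1 and 5 were highest on replicate 3. The same shares over all names were not computed. With shExosc8 replicate 3 left out, 6 members rose and 1 fell, Cd81 and Cd151 joining the risers and Cd37 falling. That fit called 45.1% of all names, against 29.8% with all 6 arrays.

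**Figure D2:**
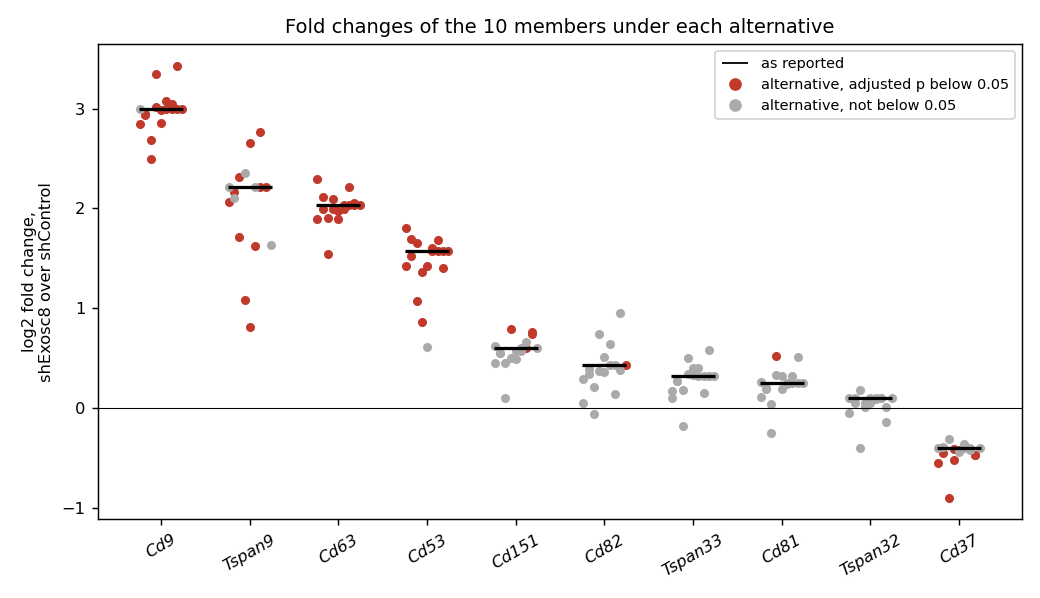
Log2 fold change (shExosc8 over shControl, vertical axis) of the 10 members as reported (black bars) and under each alternative (points), red where the adjusted p was below 0.05 and grey where it was not. Alternatives are other scalings, background corrections, filters, probe rules, blocks and omitted arrays. Cd9 and Cd63 stayed far above 0 in all of them, while points of Tspan33, Cd82, Cd81 and Tspan32 lie on both sides of 0.

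Among the other tetraspanins of the mouse, 21 were on the array and 15 were measured. Of these, Tspan18 and Tspan2 rose and Rom1, Tspan5 and Tspan12 fell, 5 of 15 called, against 29.8% of all names. Tspan2 and Tspan12 entered this count only through the group of arrays where they were higher. With only probes above background on all 6 arrays, 3 of 13 were called, against 33.4% of all names. The median log2 fold change of the 15 was -0.15. Tspan18 had a normalized signal of 549, 586 and 409.5 in shExosc8 samples, against 70.8, 102 and 95.1 in shControl samples, and rose by a log2 of 2.53 ± 0.20 (adjusted p = 0.000853). Tspan18 is a partner of the calcium channel Orai1 in endothelial cells and lies next to Cd82 in the RefSeq gene order. Tspan2 was above background on all 3 shExosc8 arrays and on none of the shControl arrays, so it was at least 4.27-fold higher (adjusted p = 0.00246). Tspan1, Tspan7, Tspan10, Tspan11, Upk1b and Prph2 were not well above background.

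**Figure D3:**
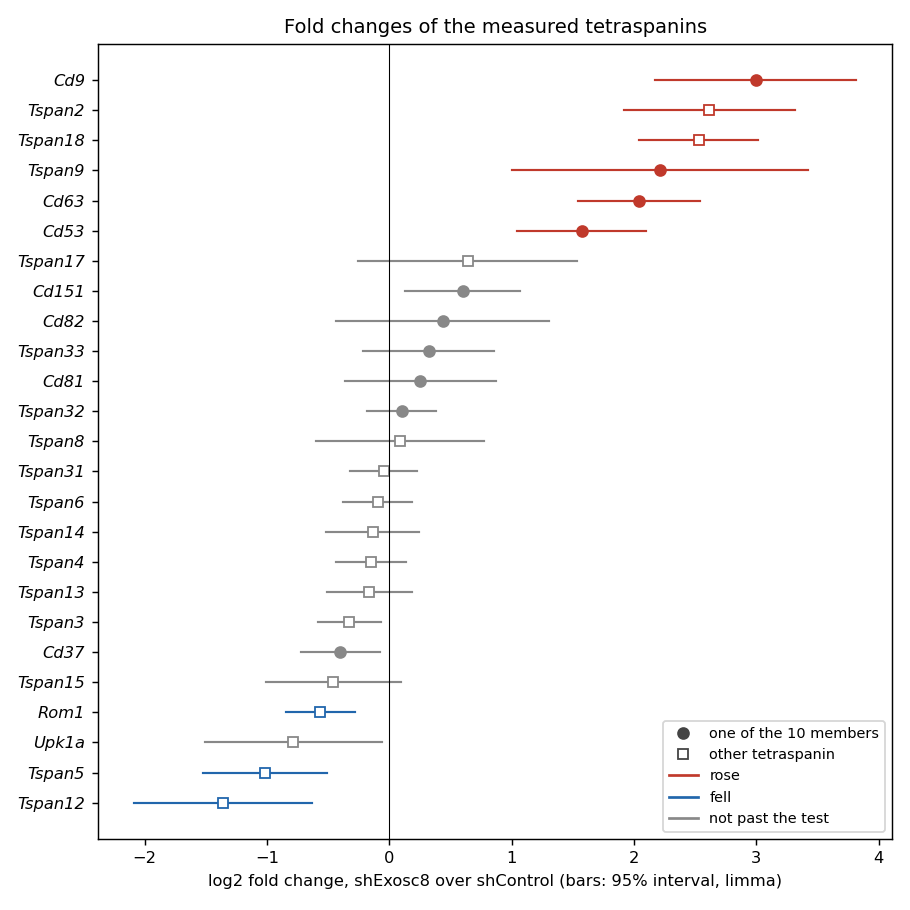
Log2 fold change (shExosc8 over shControl, horizontal axis) of the 25 measured tetraspanins, with bars for the 95% interval from limma. Filled circles are the 10 members and open squares the other tetraspanins, red for genes that rose, blue for genes that fell and grey for the rest. Tspan2 and Tspan12 are shown at their fitted value although 1 group was below background, and Tspan9 although only 1 shControl array was above it. Each of these genes passed the filter only through the group where it was higher, and is in the counts given here. Of the 25, 6 rose and 3 fell, against 16% and 13.8% of all names.

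Tspan5 belongs with Tspan33 to the TspanC8 subgroup, the tetraspanins that bind ADAM10, a protease that cleaves Notch and other surface proteins. Its normalized signal was 1478, 1236 and 2165 in shExosc8 samples, against 3164, 3246 and 3187 in shControl samples. The groups did not overlap, and Tspan5 fell by 1.02 ± 0.21 on the log2 scale (adjusted p = 0.0168), a call lost without shExosc8 replicate 1, shControl replicate 1 or shControl replicate 3 (adjusted p up to 0.0655). Over all names, 16% rose and 13.8% fell. Among the 15 measured genes of that subgroup and its pathway, Adam10 rose by 0.78 ± 0.23 (adjusted p = 0.0484) and 4 fell, with a median of -0.25. Besides Tspan5 these were Notch2, at -0.66 (adjusted p = 0.0277), and the gamma-secretase genes Aph1a, at -0.63 (0.0122), and Ncstn, which was at least 1.67-fold lower (0.0212). Ncstn was below background on all 3 shExosc8 arrays and entered this count only through the shControl arrays. The call for Adam10 was lost without any 1 array other than shExosc8 replicate 3. Those for Notch2 and Ncstn were lost in 4 of the 6 fits that left out 1 array, and that for Aph1a without shExosc8 replicate 1 or shControl replicate 3. Tspan12, a partner of Frizzled receptors, was below background on all 3 shExosc8 arrays and at least 2.55-fold lower (adjusted p = 0.021), and the photoreceptor gene Rom1 fell by 0.56 ± 0.12 (adjusted p = 0.0167). The call for Tspan12 was lost without shExosc8 replicate 1 or 2, and that for Rom1 without the same arrays as that for Tspan5.

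Of 18 measured genes for proteins known to bind tetraspanins, 10 rose and 2 fell, with a median log2 fold change of 0.69, against 16% upward and 13.8% downward over all names. Itga2b and Itgb3, the 2 chains of the platelet integrin that Cd9 accompanies, rose by 3.51 ± 0.17 and 3.34 ± 0.25. Itga2b had 7283, 7782 and 5582 in shExosc8 samples, against 511, 634 and 656 in shControl samples, with no overlap. Gp6, the collagen receptor GPVI, rose by 3.48 ± 0.26, and Itga6, the laminin receptor chain that Cd151 holds, by 3.16 ± 0.29. The leukocyte integrin Itgal rose by 2.02 ± 0.14, the CD81-binding antiviral genes Ifitm1, Ifitm2 and Ifitm3 by 1.74 to 1.84, and Cd47 and the syntenin gene Sdcbp by 0.70 and 0.68. The fibronectin receptor chain Itga5 was at -0.98 and the receptor gene Kit at -1.16, both called lower, with adjusted p of 0.0215 and 0.0445. Leaving out any 1 array other than shExosc8 replicate 3 lost the calls for Kit and Sdcbp. Those for Itga5 and Cd47 were lost in 4 of the 6 fits that left out 1 array, and those of the other 8 in none.

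Genes that act with Cd63 in endosomes and secreted vesicles divided. Of 15 measured, 5 rose and 2 fell, against 16% and 13.8% of all names, with a median of 0.09. Sdcbp, given above, is among the 5 that rose. Rab27b, a GTPase that docks granules and is prominent in platelets, had 4953, 6359 and 3399 in shExosc8 samples and 488, 446 and 753 in shControl samples. It rose by 3.12 ± 0.29 (adjusted p = 0.00148), and Rab27a rose by 1.52 ± 0.28 (adjusted p = 0.0115). The lysosomal membrane genes Lamp1 and Lamp2 rose by 0.39 and 0.45, and the ESCRT ATPase genes Vps4a and Vps4b fell by 0.64 and by 0.35 on the log2 scale. Calls for Lamp1, Lamp2 and Vps4b were lost without any 1 array other than shExosc8 replicate 3, that for Vps4a in 4 of those 6 fits, and those for Rab27b and Rab27a in none. Lamp1 and Lamp2 turned to -0.10 and -0.0499 without scaling between arrays.

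Tspan32, Cd81 and Tssc4 follow each other on chromosome 7, beside an imprinted cluster. Of 11 measured genes there none rose and 3 fell, against 16% and 13.8% of all names, with a median of -0.33. The taste channel gene Trpm5 was at least 2.13-fold lower (adjusted p = 0.0074), being below background on all 3 shExosc8 arrays. It entered this count only through the shControl arrays. Slc22a18 fell by 0.74 and Tssc4 by 0.33 on the log2 scale, calls lost in 4 and 5 of the 6 fits that left out 1 array. Cd9 lies next to the von Willebrand factor gene Vwf, which rose by 2.94 ± 0.13.

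Markers of other blood cells moved with Cd9, Cd63 and Tspan9, while over all names 16% rose and 13.8% fell. Of 20 megakaryocyte markers 18 rose, with a median log2 fold change of 3.12, including the platelet receptor gene Gp1bb (3.92 ± 0.14) and the granule adhesion gene Selp (3.04 ± 0.13). Their summed normalized signal was between 359565 and 510969 in shExosc8 samples and between 40812 and 58521 in shControl samples, and 18 of the 20 were above background on all 6 arrays. Itga2b, Itgb3, Gp6, Rab27b and Vwf, given above, are among the 20, so this count and the earlier ones share genes. Of 7 measured mast cell and basophil markers 4 rose, among them Cpa3 (3.25 ± 0.28), while Fcer1a and Ms4a2, chains of the IgE receptor, and Mcpt8 were not well above background. The summed signal of those 7 was between 19408 and 27933 in shExosc8 samples and between 7184 and 14156 in shControl samples. The part of such cells in the rise of the tetraspanins was not tested.

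The 13 measured stem and progenitor markers divided, with 7 higher and 2 lower, against 16% and 13.8% of all names. Kit, given above as a tetraspanin partner, is among the 2 lower. The median of the 13 was 0.87. Their summed signal was between 56418 and 63252 in shExosc8 samples and between 51376 and 67241 in shControl samples, so the groups overlapped in that sum, which the brightest probes set. The mean scaled log2 signal of the 13, relative to the shControl mean, was 1.45, 1.46 and 1.6 on shExosc8 arrays, against -0.24, -0.06 and 0.30 on shControl arrays. These means did not overlap, as the groups did not in 51.6% of all single names. Only 10 of the 13 were above background on all 6 arrays, and the largest log2 fold change was 6.15, so dim probes and single genes weigh on that mean. The part of stem and progenitor cells in the values of Cd9 was not tested. Beside the leukocyte tetraspanins Cd53 and Cd37, 13 of 14 neutrophil and monocyte markers rose (median 1.97), with sums between 304499 and 384751 in shExosc8 samples and between 123071 and 142215 in shControl samples. Of 6 measured macrophage markers 4 rose (median 1.09), with sums between 5103 and 6505 in shExosc8 samples and between 2285 and 3003 in shControl samples, and 9 of 15 were too dim. Of 6 measured lymphoid markers 1 rose (median 0.33), with sums between 3062 and 3186 in shExosc8 samples and between 2386 and 2665 in shControl samples, and the lymphoid genes Ms4a1, Pax5 and Rag1 were not well above background. For cells of the liver, 4 of 7 measured hepatocyte markers rose, with sums between 3744 and 4447 in shExosc8 samples and between 2324 and 2656 in shControl samples and Alb not well above background. Of 5 measured endothelial and stromal markers 2 rose and 1 fell, with sums between 7437 and 8426 in shExosc8 samples and between 5875 and 5978 in shControl samples. The part of these cells in the values of Cd53, Cd37 and the other members was not tested.

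Beside Tspan33, 12 of 25 erythroid markers rose and 1 fell (Epor, the receptor for erythropoietin, at -0.58), against 16% and 13.8% of all names. The median log2 fold change of the 25 was 0.59. Bpgm, which makes the red cell metabolite that loosens oxygen from haemoglobin, rose by 2.12 ± 0.21, and the late erythroid genes Xpo7 and Trim58 rose by 2.47 ± 0.30 and 1.83 ± 0.18. The membrane skeleton gene Epb41 rose by 1.82 ± 0.22. The erythroid regulators Klf1 (-0.37) and Gata1 (0.06) and the transferrin receptor gene Tfrc (0.05) did not pass the test. The summed signal of the 25 was between 1935069 and 2880825 in shExosc8 samples and between 1255156 and 1558915 in shControl samples. The Tspan33 log2 fold change of 0.32 thus lay below the median of that list and far below that of the megakaryocyte list.

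**Figure D4:**
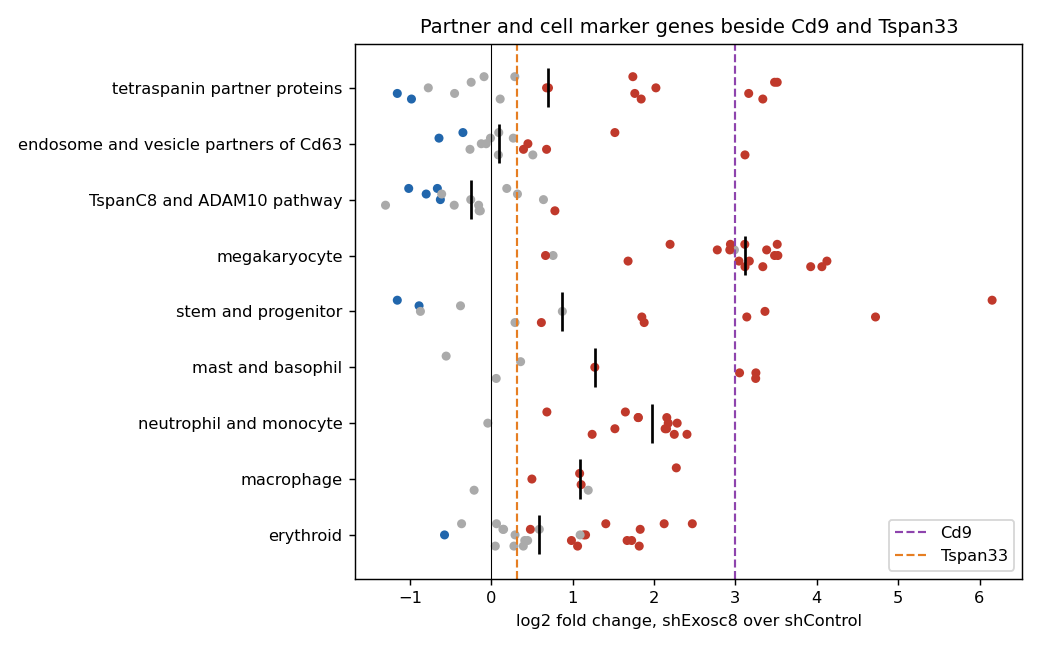
Log2 fold change (shExosc8 over shControl, horizontal axis) of each measured gene of the partner and cell marker lists, 1 point a gene, red for genes that rose, blue for genes that fell and grey for the rest, with a black bar at each list's median. Some genes are on more than 1 list and are drawn in each. Dashed lines mark Cd9 at 3.00 and Tspan33 at 0.32. The megakaryocyte median of 3.12 lies beside Cd9. The erythroid median of 0.59 lies nearer to Tspan33 than to Cd9, as do the medians of other lists. These include 0.09 for the endosome and vesicle partners of Cd63, 0.69 for the tetraspanin partners and 0.87 for the stem and progenitor markers.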

How the data were processed

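Cy3-labelled total RNA of 6 samples was measured on single-colour arrays. Per the file headers, the deposited spot intensity values were made by the scanner software Feature Extraction (10.7.3.1), and probe positions are on mouse build mm9. The authors' deposited table repeats those intensities (equal within 0.01%) and holds their log2 fold changes, p-values and adjusted p-values, for which the submitters' processing notes name limma. How they normalized the arrays was not stated in the labels or headers.

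Control and outlier-flagged spots were dropped, spots of a probe averaged, and each array's 75th percentile subtracted on the log2 scale, taken over the 21615 probes (38.8%) well above background on all arrays. The filter kept 24836 probes, those above background on every array of 1 group or both, and the probe with the highest mean stood for each of 18228 names. limma 3.58.1 (R 4.3.3) gave moderated fold changes, with 0.05 as the threshold. The fit step was tested on simulated data. "At least" folds set the bright group's mean against the dim group's mean. Each dim signal was first raised to the detection floor of its array where it lay below that floor. These folds are estimates without an interval. Names of 27509 of 55681 probes came by accession and 3549 by symbol from a RefSeq table (GRCm38.p6), and 24623 kept the file's name.

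The members and lists were chosen with earlier results of these data known, so their counts are descriptions. Named genes were all members, the called genes among other tetraspanins and partner lists, the 4 markers with the smallest p of the megakaryocyte and erythroid lists, and the 3 genes most like Cd9 and Tspan33. The rule also covered 4 genes of every other marker list, which are given as counts. Epor, Klf1, Gata1, Tfrc and the markers named as dim were added as context after their values were seen. The number of arrays limits the precision.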

Additional observations from a re-analysis of the deposited data

How the results depend on the processing

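Fold changes were recomputed under other scalings, background corrections, filters, probe rules and blocks, and without each array. Of the 4 members called, 2 were left with the slide column as a block and 2 in the authors' deposited table, and leaving out 1 array gave 3 to 7, the 7 without shExosc8 replicate 3. The share called of all names ran alongside, at 29.8% as reported, 12.8% to 45.1% with 1 array left out (lowest without shExosc8 replicate 1, highest without shExosc8 replicate 3) and 50.3% with no scaling. For the other tetraspanins, 5 calls of 15 became 9 with no scaling, 2 of 21 with no filter on dim probes, 3 of 13 with only probes above background on all 6 arrays, 2 of 15 with the column block and 3 of 21 in the authors' deposited table, and 2 (without shExosc8 replicate 1) to 7 (without shExosc8 replicate 3) with 1 array left out, and 3 without shControl replicate 1 or 3. For the partner genes, 23 calls of 46 became 9 of 59 with no filter, 9 of 46 with the column block and 9 of 59 in the authors' deposited table, and 10 (without shExosc8 replicate 1) to 29 (without shExosc8 replicate 3) of 46 to 49 measured with 1 array left out. Without shExosc8 replicate 2 or any 1 shControl array it was 11 to 14. The column block leaves few degrees of freedom and called 2.95% of all names, and no filter called 5.19%. The Cd9 minus Tspan33 difference was 2.45 to 2.90 without 1 array and 2.85 in a fit, chosen after seeing the data, that dropped both shExosc8 replicate 3 and shControl replicate 2. Directions turned for Tspan32 (-0.0457 with the percentile over all probes, -0.40 with no scaling, -0.14 over the mean of its probes) and, with no scaling, for Cd81 (-0.25), Cd82 (-0.0633), Tspan33 (-0.18), Lamp1 (-0.10), Lamp2 (-0.0499) and Rhd (-0.0886). The median of all names was -0.56 with no scaling and -0.21 with the percentile over all probes, against -0.06 as reported, and Tspan33 was above that median in each. With no scaling 10 partner genes were called higher and 17 lower, against 15 and 8. Cd37 passed as lower with the percentile over all probes (-0.55), median centring (-0.45), no scaling (-0.90), both normexp settings (-0.42 and -0.43) and the mean over its probes (-0.47). Whether the replicate numbers pair the samples could not be settled from 3 samples a group. Deviations of same-numbered samples correlated at 0.04, 0.22 and 0.30 for replicates 1, 2 and 3. Replicates 2 and 3 correlated best with their own number, and replicate 1 did not. With the replicate number as a block, 5 members, 6 other tetraspanins and 25 partner genes were called, beside 30.9% of all names. Cd82 was added among members (adjusted p = 0.0379), Tspan33 had an adjusted p of 0.0834, and the Cd9 minus Tspan33 difference was 2.67. Detection limits Tspan9 and Cd53, whose shControl signals lay near the floor. The cause of these differences between settings was not tested.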
